A study of Rattus norvegicus with 18 samples.

Results

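The genes described here encode the tubulins, the proteins that bind, modify or travel along microtubules, and the intermediate filament proteins. They were taken by name from a fixed list of 40, of which 39 were matched among the 28909 gene names of the deposited table, and MAPRE2 is not analysed here. All 39 passed the filter on low values (at least 0.162 CPM in at least 3 libraries), as did 15204 genes in all. Neonatal rat ventricular cardiomyocytes, isolated from 1-day-old wild-type SD (Sprague-Dawley) rats and kept in low-serum medium on collagen, were given 25 µM blebbistatin, an inhibitor of myosin II, or DMSO for 0.5 h. The submitters' design text also gives the dose as 0.25. RNA from 3 libraries per group was sequenced, so the question addressed is which transcripts differ after a short block of myosin II motor activity. Whether the libraries of a group stem from independent isolations is not given, and p-values therefore speak only to differences among these 6 libraries. Gene names are printed in capitals, as in the deposited table. The 12 chromatin samples of the series are not analysed here.

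Microtubules are polymers of alpha and beta tubulin dimers that grow and shrink at their plus ends. Their lattice is marked by reversible removal of the last tyrosine of alpha tubulin, and in heart muscle the detyrosinated form binds to desmin filaments and resists shortening of the myocyte. Tubulin messenger RNAs are known to be destabilised when free tubulin dimers accumulate, so tubulin transcripts can respond to the state of the polymer. Intermediate filaments are tension-bearing polymers whose subunits mark cell types, with desmin in muscle, vimentin in mesenchymal cells, nestin in immature and neural cells and keratins in epithelia.

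Expression is given in CPM (reads of a gene per 1000000 reads of its library), at a depth of 59.6 to 63.3 M reads as judged from the smallest step in each column. DMSO replicate 1 stood apart, as the highest library for 33.7% of all tested genes and the lowest for 35.3%. For 13.8% of these genes it lay more than 1 log2 unit from the mean of the other 5 libraries. That last share was not computed for any other library. Summed over 19 ribosomal protein genes, DMSO replicate 1 was at 6486 CPM, against 9132 to 11828 CPM in the others. The 9 measured cardiomyocyte markers (such as TNNT2 and ACTN2) summed to 19936 to 28404 CPM with DMSO and 19977 to 21563 CPM with blebbistatin. MYH7 made up the largest part of this sum, at 11154 to 19644 CPM, and was highest in DMSO replicate 1. TNNT2 was lowest in that library, at 977 CPM. Averaged over the 9 genes, DMSO replicate 1 differed from the other 5 libraries by 0.020 log2 units. The 9 fibroblast markers (such as COL1A1 and DCN) were also abundant, at 33601 to 39100 and 33649 to 38145 CPM, so the cultures held RNA of both kinds. Fewer cells of a type and less RNA per cell cannot be told apart in such bulk libraries.

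No tubulin, microtubule or intermediate filament gene on the list passed the test between blebbistatin and DMSO. By limma with Benjamini-Hochberg adjustment over all 15204 genes, 0 of 39 were called at an adjusted p under 0.05, where 3 of all tested genes, or 0.0197%, were called (0.00658% higher, 0.0132% lower). At an unadjusted p under 0.05 there was 1 of 39, the nestin gene NES, beside 1.52% of all genes. The lowest adjusted p among the 39 was 0.991. Log2 fold changes were below 0 for 21 of the 39 genes and above 0 for 18. Their median was -0.011, beside 0.0038 over all genes, of which 49.4% were below 0.

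In 4 of the 39 genes the 3 treated libraries all lay on one side of the 3 controls: TUBA1B and TUBA1C were higher with blebbistatin, and NES and KRT8 lower. Of all tested genes 6.19% had groups that did not overlap (3.23% higher, 2.96% lower). With 2 of 39 in each direction, the count exceeds these shares by under 1 gene each way. With RLE scaling 3 of the 39 genes had groups that did not overlap, and with library-size scaling 5. The share of all genes under these scalings is not given here. Without DMSO replicate 1, limma called 0 of 39 (0.0395% of all genes), and TUBA8 and NES had an unadjusted p under 0.05 (1.58% of all). Groups then did not overlap for 3 genes that were higher (TUBA1B, TUBA1C and TUBB5; 6.14% of all genes) and 4 that were lower (TUBA8, NES, KRT8 and KRT18; 5.97%). Fold changes are on the scale of log2(CPM + 0.1), after scaling by TMM factors.

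**Figure D1:**
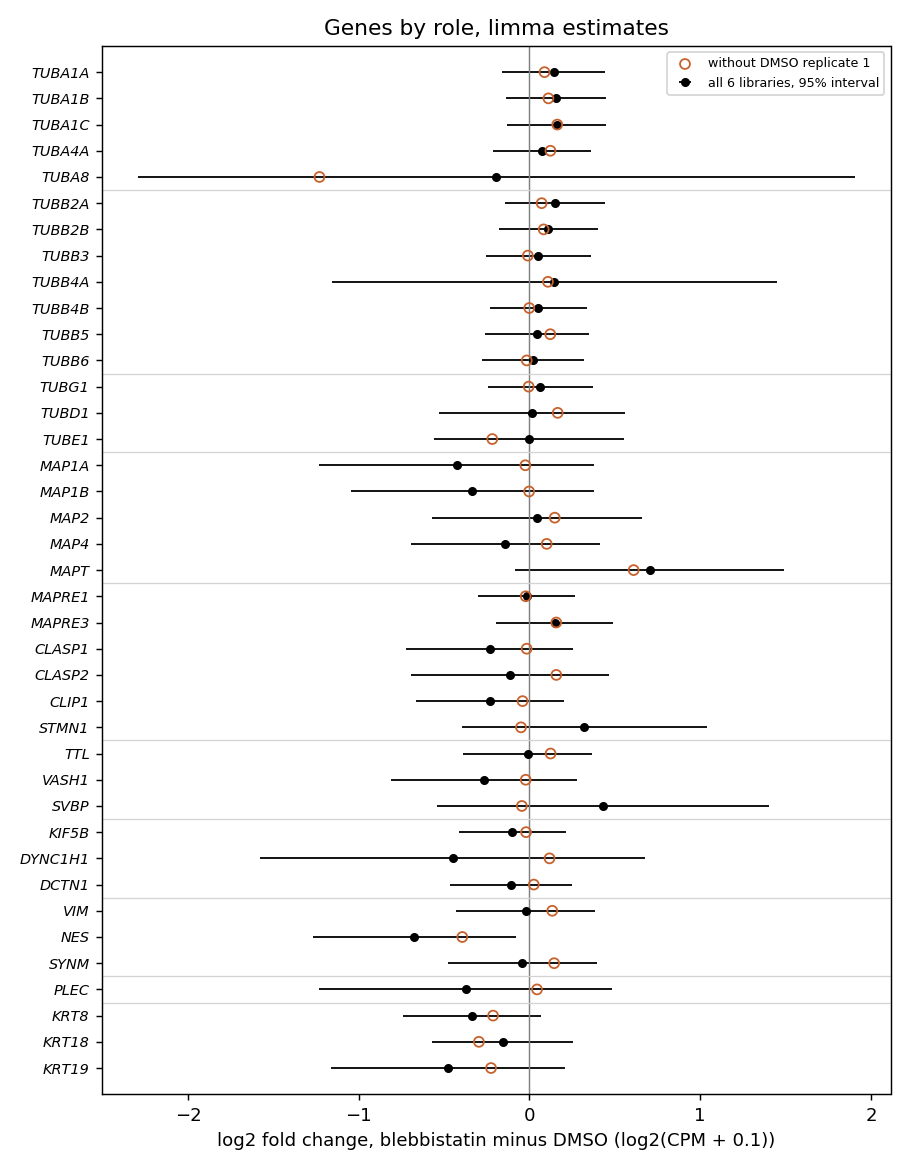
Log2 fold change of blebbistatin over DMSO (horizontal axis) for the 39 genes, ordered by role; filled points and bars are the limma estimate with its 95% interval over all 6 libraries, and open circles the estimate without DMSO replicate 1. The interval covers 0 for every gene but NES, and the open circles of MAP1A, MAP1B, STMN1, SVBP, DYNC1H1 and PLEC lie close to 0.

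Promoters are shown for the 4 of the 39 genes whose groups did not overlap after TMM scaling, none of which passed the test. Each promoter runs from 250 bases before to 50 after the RefSeq start site on build GRCr8, 5′ to 3′ on the gene's strand. Capitals mark matches on either strand to 5 motifs, which may overlap. They are the TATA box, searched as TATAAA, the CCAAT box, searched by those letters, and the GC box, searched as GGGCGG. The AP-1 site was searched as TGANTCA, and the cyclic AMP response element by the letters TGACGTCA.
TUBA1B (chr7:131972538-131972837, minus strand): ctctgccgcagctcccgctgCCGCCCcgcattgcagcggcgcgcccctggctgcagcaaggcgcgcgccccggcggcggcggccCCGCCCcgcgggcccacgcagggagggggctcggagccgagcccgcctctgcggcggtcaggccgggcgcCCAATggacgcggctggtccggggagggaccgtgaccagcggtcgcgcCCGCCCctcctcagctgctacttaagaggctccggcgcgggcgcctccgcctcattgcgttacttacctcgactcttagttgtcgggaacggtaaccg
TUBA1C (chr7:132070734-132071033, plus strand): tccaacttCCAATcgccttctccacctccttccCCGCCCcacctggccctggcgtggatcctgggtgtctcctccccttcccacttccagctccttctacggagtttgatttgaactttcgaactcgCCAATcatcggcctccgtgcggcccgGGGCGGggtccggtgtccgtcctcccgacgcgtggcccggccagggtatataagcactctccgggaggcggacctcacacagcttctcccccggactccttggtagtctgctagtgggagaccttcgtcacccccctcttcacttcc
NES (chr2:175736338-175736637, plus strand): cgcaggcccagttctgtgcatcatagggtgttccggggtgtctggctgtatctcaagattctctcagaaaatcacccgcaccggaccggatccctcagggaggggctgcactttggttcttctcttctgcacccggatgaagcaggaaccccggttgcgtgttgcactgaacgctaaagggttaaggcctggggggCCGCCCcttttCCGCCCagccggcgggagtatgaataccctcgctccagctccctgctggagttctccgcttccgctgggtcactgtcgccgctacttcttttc
KRT8 (chr7:135010290-135010589, minus strand): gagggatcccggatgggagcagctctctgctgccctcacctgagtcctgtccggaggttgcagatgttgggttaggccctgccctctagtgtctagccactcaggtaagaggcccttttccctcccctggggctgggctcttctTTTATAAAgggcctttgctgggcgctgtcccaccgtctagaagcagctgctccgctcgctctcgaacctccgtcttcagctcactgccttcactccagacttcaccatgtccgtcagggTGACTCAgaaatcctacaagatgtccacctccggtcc

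The TUBA1B window holds 3 GC boxes and 1 CCAAT box, and that of TUBA1C holds 2 of each. The NES window holds 2 GC boxes. The KRT8 window holds 2 overlapping TATA matches, 1 AP-1 match downstream of the listed start and no GC box. The letters ATG follow that listed start directly. The AP-1 match may therefore lie in coding sequence, and the window may not be centred on the start of transcription. Of the 39 genes, 33 matched a RefSeq promoter. CCAAT and GC boxes each occurred in 60.6% of these 33, beside 37.7% and 34.9% of 27457 promoters of the same length. The TATA letters occurred in 21.2% of the 33 (14.3% of all), the AP-1 letters in 6.06% (7.33% of all) and the cyclic AMP element in 3.03% (1.91% of all). The 33 promoters had a median GC content of 62%, beside 52.3% over all. All 33 genes passed the filter on low values, while the 27457 promoters were not limited to such genes. These shares thus compare unlike sets. A match describes letters only.

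Among the alpha tubulin genes, TUBA1B, which encodes a main alpha tubulin of most cells, was at 1128, 1357 and 1367 CPM with DMSO and at 1402, 1532 and 1463 CPM with blebbistatin. All treated libraries lay above all controls, with DMSO replicate 1 the lowest. Scaled means were 1298 ± 72.6 and 1447 ± 84.6 CPM (SD, n = 3 each), a log2 fold change of 0.16 ± 0.12 (SE; 95% interval -0.14 to 0.45; limma adjusted p = 0.991). TUBA1C, another widely expressed isotype, was at 227.3, 245.8 and 250.4 CPM with DMSO and at 252.3, 293.8 and 285.1 CPM with blebbistatin. Its groups were separated by a narrow gap, between DMSO replicate 3 and blebbistatin replicate 1. The log2 fold change was 0.16 ± 0.12 (95% interval -0.13 to 0.45; limma adjusted p = 0.991).

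TUBA1A, an isotype typical of developing neurons, followed TUBA1B closely. It was at 1119, 1382 and 1366 CPM with DMSO and at 1399.7, 1546 and 1421 CPM with blebbistatin. The ratio of TUBA1A to TUBA1B stayed between 0.971 and 1.02 in the 6 libraries. Both genes lie within the span that the GRCr8 table gives for all transcript models of TUBA1C, some of which start upstream of the promoter window printed here, and their coding sequences are known to be nearly identical, so reads of the 3 may have been divided between them in a way the sources do not state. TUBA4A ran from 102.5 to 121.8 CPM with overlapping groups. TUBA8, an isotype known from muscle and testis, was low, at 0.0661, 1.07 and 1.81 CPM with DMSO and 0.582, 0.253 and 0.973 CPM with blebbistatin. In DMSO replicate 1 its level was near the worth of 3 reads (0.0496 CPM).

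In the beta family, TUBB5, the main beta tubulin gene of dividing and many other cells, was at 1921, 1787 and 1815 CPM with DMSO and at 1888, 1998 and 1968 CPM with blebbistatin. The groups overlapped through DMSO replicate 1, and the log2 fold change was 0.045 ± 0.13 (95% interval -0.26 to 0.35; limma adjusted p = 0.991). TUBB2A, an isotype known from neurons, had the lowest p of this family. It was at 78.9, 98.7 and 106.6 CPM with DMSO and at 109.1, 108.2 and 104.7 CPM with blebbistatin (log2 fold change 0.15 ± 0.13). DMSO replicate 1 was the lowest library, and the value was 0.071 without it. RefSeq lists the name TUBB2B also as a synonym of TUBB2A, so these neighbouring genes are uncertain.

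The other beta isotypes overlapped between groups. TUBB4B, a broadly expressed isotype, ran from 285.4 to 365.4 CPM and TUBB6, a divergent isotype, from 231.2 to 296.6 CPM. TUBB3, the isotype used as a neuronal marker, ran from 52.5 to 72 CPM and TUBB2B from 43 to 59 CPM. TUBB4A, a neuronal isotype, was at most at 0.474 CPM. All 7 beta tubulin genes and 4 of 5 alpha tubulin genes had positive log2 fold changes under the TMM, RLE and library-size scalings, and none passed the test. After scaling, 8 of these 12 genes were at their lowest in DMSO replicate 1. Without that library 4 of the 7 beta tubulin genes had positive values, and the median of the 5 alpha tubulin genes went from 0.14 to 0.11.

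**Figure D2:**
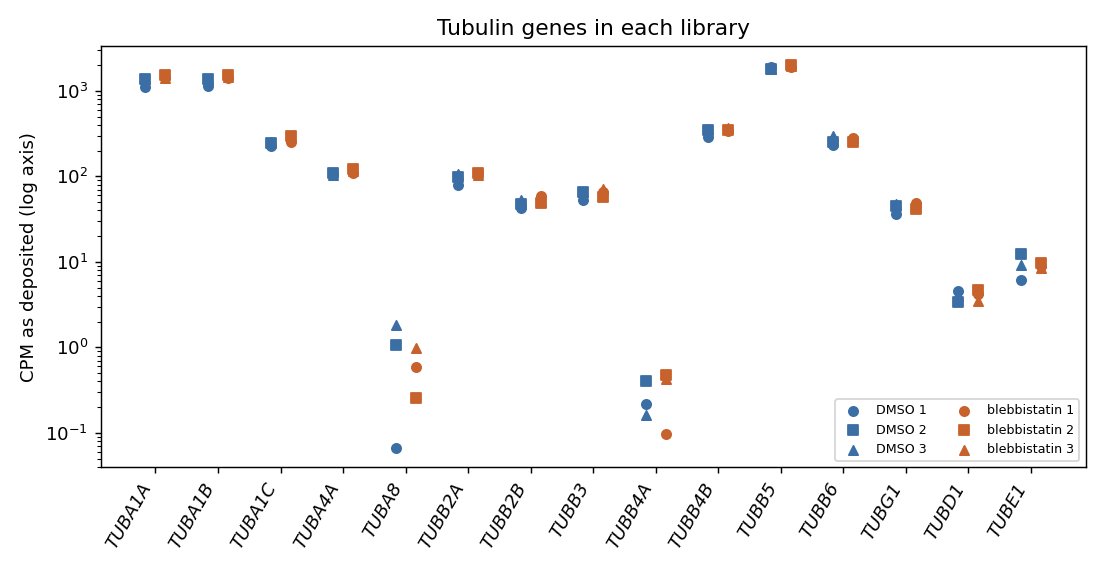
CPM as deposited (log axis) of the 15 listed tubulin genes in each of the 6 libraries; colours mark the treatment and symbols the replicate number. Points of the abundant isotypes lie close together, while TUBA8 (0.0661 to 1.81 CPM) and TUBB4A (0.097 to 0.474 CPM) scatter at low counts.

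The makeup of the tubulin reads was nearly constant. Of the reads on the 5 alpha tubulin genes, TUBA1B took 43.9 ± 0.307% with DMSO and 44.2 ± 0.342% with blebbistatin (SD, n = 3 each; exact permutation test, two-sided, p = 0.2, smallest possible 0.1). TUBA1A took 43.2 to 44.6% and TUBA1C 7.94 to 8.81% over the 6 libraries. Of the beta tubulin reads, TUBB5 took 69.9 ± 3.21% and 69.8 ± 1.2% (exact permutation p = 1, n = 3 each). Its highest share was 73.5%, in DMSO replicate 1, where TUBB4B had its lowest, 10.9% against 12.3 to 13.4% elsewhere. These are shares of reads, not corrected for transcript length. Summed alpha over summed beta tubulin reads stood at 0.988 in DMSO replicate 1 and between 1.15 and 1.24 in the other 5 libraries.

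**Figure D3:**
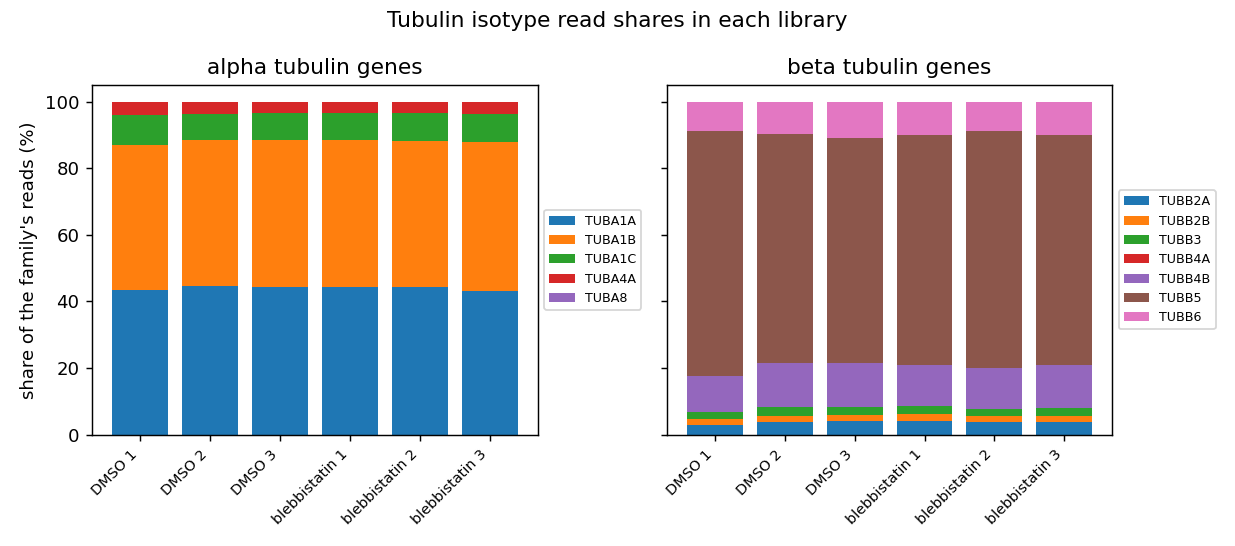
Share of the family's reads (vertical axis, %) taken by each alpha (left) and beta tubulin gene (right) in each library, as stacked bars. TUBA1A and TUBA1B each hold about the same part of the alpha tubulin reads in all libraries, and TUBB5 holds 67.5 to 73.5% of the beta tubulin reads.

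The 3 remaining tubulins serve centrosomes and basal bodies. TUBG1, the gamma tubulin that nucleates microtubules, was at 36.5, 44.7 and 48.1 CPM with DMSO and at 49.1, 41.1 and 48.2 CPM with blebbistatin (log2 fold change 0.064 ± 0.13). The groups overlapped and the lowest library was again DMSO replicate 1. The delta and epsilon tubulin genes TUBD1 and TUBE1, linked to centriole structure, ran from 3.37 to 4.74 CPM and from 6.17 to 12.3 CPM. TUBE1 overlaps a neighbouring gene in the GRCr8 table.

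The structural microtubule-associated proteins stabilise the lattice. MAP4, the main member outside neurons, was at 921.8, 684.7 and 549.9 CPM with DMSO and at 567.3, 743.3 and 666.8 CPM with blebbistatin. DMSO replicate 1 was the highest and DMSO replicate 3 the lowest of the 6. The log2 fold change was -0.14 ± 0.24 (95% interval -0.70 to 0.42; limma adjusted p = 0.991) and 0.10 without DMSO replicate 1. MAP1A and MAP1B, large proteins known from axons and dendrites, were likewise highest in DMSO replicate 1. MAP1A was at 928.8, 511.7 and 383.5 CPM with DMSO and at 357.7, 466.7 and 488.5 CPM with blebbistatin. MAP1B was at 765.3, 482.8 and 369.1 CPM and at 343.5, 496.2 and 433.7 CPM. The span of MAP1A overlaps that of TP53BP1 in the GRCr8 table, so its counts are uncertain.

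MAPT, the gene of tau, differed from the others of this group. It was at 8.17, 6.69 and 17.9 CPM with DMSO and at 18.8, 16 and 15.4 CPM with blebbistatin. DMSO replicates 1 and 2 were low, while DMSO replicate 3 lay among the treated libraries, so the groups overlapped. The log2 fold change of 0.70 ± 0.34 (95% interval -0.082 to 1.49; limma adjusted p = 0.991) was the highest of the 39. Leaving out single libraries gave 0.40 (without DMSO replicate 2) to 1.10 (without DMSO replicate 3). The 10 listed neuron and glia markers summed to 4.81 CPM in DMSO replicate 1, 7.88 CPM in DMSO replicate 2 and 9.18 to 10.5 CPM in the other 4 libraries, with the neuronal marker RBFOX3 listed at 0 throughout. Their part in the MAPT values was not tested. MAP2, the dendritic member, was at 1.79 to 2.84 CPM.

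Of the proteins that act at microtubule ends, MAPRE1, which encodes the end-binding protein EB1, was at 160.2, 170.2 and 186.5 CPM with DMSO and at 194.1, 165.8 and 165.5 CPM with blebbistatin (log2 fold change -0.017 ± 0.12; 95% interval -0.30 to 0.27). Its sign turned with library-size scaling (0.023). CLIP1, the plus-end protein CLIP-170, had the lowest p of this group. It was at 133.2, 105.6 and 92.1 CPM with DMSO and at 89.5, 102.3 and 95 CPM with blebbistatin (-0.23 ± 0.19). The value was -0.04 without DMSO replicate 1. CLASP1 and CLASP2, which rescue shrinking microtubules, ran from 103.3 to 163 CPM and from 53.7 to 90.9 CPM, both highest in DMSO replicate 1. MAPRE3 (EB3) ran from 15.9 to 21.1 CPM. STMN1, whose product stathmin sequesters tubulin dimers, showed the opposite order, at 45.8, 98.2 and 120.4 CPM with DMSO and 120.4, 100 and 95.1 CPM with blebbistatin.

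The tubulin code genes set the tyrosination of alpha tubulin. TTL, the ligase that restores the tyrosine, was at 36.7, 28.5 and 32.5 CPM with DMSO and at 31.1, 31.7 and 36.6 CPM with blebbistatin. The fold change of -0.011 ± 0.16 on the log2 scale (95% interval -0.39 to 0.37) took the other sign with library-size scaling (0.028). VASH1, a vasohibin that removes the tyrosine, was at 37, 23.8 and 25 CPM with DMSO and at 21.8, 21.9 and 28.6 CPM with blebbistatin. The log2 fold change was -0.27 ± 0.23, and -0.022 without DMSO replicate 1. SVBP, the small partner that vasohibins need, was at 3.72, 8.7 and 14.4 CPM and at 12.1, 11.3 and 9.28 CPM. Within DMSO, VASH1 was thus highest and SVBP lowest in replicate 1. In controls, 1.01, 0.833 and 0.768 VASH1 reads were found per TTL read, and in treated libraries 0.701, 0.690 and 0.780, with the groups overlapping. VASH2, another vasohibin gene that is not on the list, is left out of this ratio. It ran from 60.2 to 78.2 CPM and was above VASH1 in every library. Its log2 fold change was -0.13 ± 0.15, and -0.0062 without DMSO replicate 1.

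Among the motor genes, DYNC1H1, the heavy chain of cytoplasmic dynein that carries cargo towards minus ends, was at 2159, 911.6 and 584.2 CPM with DMSO and at 592.8, 995.5 and 829.6 CPM with blebbistatin. DMSO replicate 1 was more than 2-fold above each other library, the other 5 libraries overlapped, and the SD of the controls was 931 around a scaled mean of 1265 CPM. The log2 fold change was -0.45 ± 0.48 (95% interval -1.58 to 0.68; limma adjusted p = 0.991) and 0.12 without that library. KIF5B, the kinesin-1 heavy chain that moves towards plus ends, ran from 467.3 to 529.4 CPM. DCTN1, the dynactin subunit that links dynein to microtubules, ran from 144.3 to 183.4 CPM and overlaps another gene in the GRCr8 table.

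VIM, the vimentin gene, was at 4093, 3397 and 3127 CPM with DMSO and at 3242, 3818 and 3643 CPM with blebbistatin. The groups overlapped (log2 fold change -0.022 ± 0.17; 95% interval -0.43 to 0.39), and the sign turned with library-size scaling (0.018) and without DMSO replicate 1 (0.13). SYNM, the gene of synemin, which joins desmin and vimentin filaments, ran from 68.8 to 97.6 CPM. PLEC, which encodes the large linker plectin, was at 1298, 714.6 and 499 CPM with DMSO and at 496.8, 625.8 and 741.1 CPM with blebbistatin. A log2 difference of -0.37 ± 0.37 became 0.044 without DMSO replicate 1, and it overlaps PARP10 in the GRCr8 table.

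NES was the only one of the 39 genes with an unadjusted p under 0.05. It was at 122.2, 70.9 and 79.1 CPM with DMSO and at 69.5, 52.7 and 49.9 CPM with blebbistatin. Every treated library lay below every control, with blebbistatin replicate 1 just under DMSO replicate 2. Scaled means were 93 ± 33.6 and 56.5 ± 9.86 CPM (SD, n = 3 each). The log2 fold change was -0.67 ± 0.25 (95% interval -1.27 to -0.080), with a limma p of 0.0311 and an adjusted p of 0.991, so it did not pass. Without DMSO replicate 1 the difference was -0.39, with a limma p of 0.0341 and groups that still did not overlap, where 12.1% of all genes had groups that did not. Without blebbistatin replicate 2 or 3 the limma p was 0.0897 and 0.105. Among the neuron and glia markers, SOX10 stayed under 1 CPM in all 6 libraries.

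The keratins 8, 18 and 19 form the filaments of simple epithelia, in which the type II keratin 8 pairs with a type I partner. KRT8 was at 12, 9.66 and 10.7 CPM with DMSO and at 9.33, 8.33 and 8.53 CPM with blebbistatin. No treated library reached the lowest control, and the log2 fold change was -0.34 ± 0.17 (95% interval -0.74 to 0.066; limma adjusted p = 0.991). It was -0.21 without DMSO replicate 1. Its partner KRT18 was at 16.7, 25.4 and 23.7 CPM with DMSO and at 22.3, 17.1 and 20.6 CPM with blebbistatin. The groups overlapped, with DMSO replicate 1 among the treated libraries after scaling. The log2 fold change was -0.16 ± 0.18, or -0.30 without that library. KRT19 was at 4.28, 2.48 and 3.03 CPM and at 2.86, 2.1 and 2.08 CPM. All 3 keratin genes had negative values under the TMM, RLE and library-size scalings and without DMSO replicate 1, and none passed the test. The KRT8 to KRT18 read ratio was 0.718 in DMSO replicate 1 and 0.38 to 0.487 in the other libraries. The 7 epicardial and mesothelial markers, of a lining that makes keratins, summed to 82.5 to 105.6 CPM with DMSO and 88.4 to 96.3 CPM with blebbistatin. Their part in the keratin values was not tested.

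**Figure D4:**
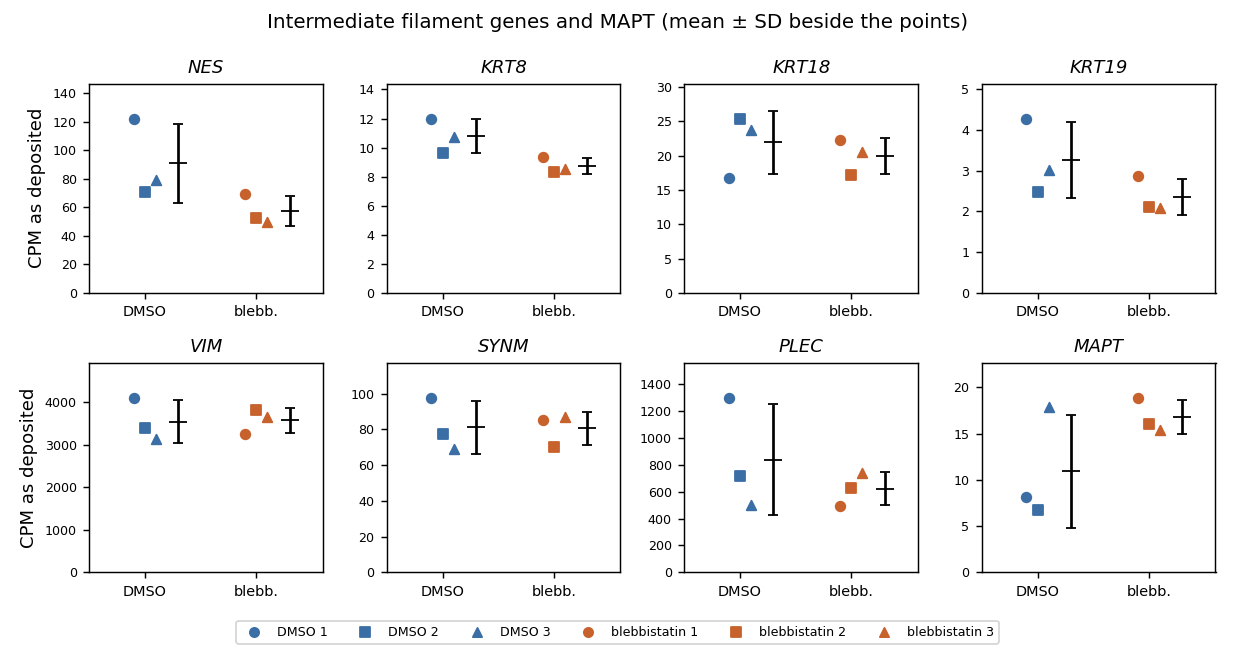
CPM as deposited (vertical axes from 0) of 7 intermediate filament and linker genes and MAPT in each library, with the mean and SD of the 3 deposited values beside the points. NES (49.9 to 69.5 CPM treated) and KRT8 lie below the controls in all treated libraries, PLEC is highest in DMSO replicate 1 (1298 CPM), and MAPT is low in DMSO replicates 1 and 2.

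Many of these genes shared an order of libraries that crossed the treatment groups. Of the 39 genes, 19 were highest and 12 lowest in DMSO replicate 1, or 48.7% and 30.8%, beside 33.7% and 35.3% of all genes. DYNC1H1, PLEC, MAP1A and NES stood more than 2-fold above the mean of the other 5 libraries there, and STMN1, SVBP and TUBA8 more than 2-fold below. In 10 of the 19, DMSO replicate 3 and blebbistatin replicate 1 were both below the other 3 libraries. These were MAP1A, MAP1B, MAP4, CLASP1, CLASP2, CLIP1, DYNC1H1, DCTN1, VIM and PLEC. TUBB2B, STMN1 and SVBP had the reverse order. The summed ribosomal protein level had the same reversed order, with 6486 CPM in DMSO replicate 1, 9132 to 10149 CPM in DMSO replicate 2 and blebbistatin replicates 2 and 3, and 11828 and 11821 CPM in DMSO replicate 3 and blebbistatin replicate 1. Its part in these values was not tested. These gene groups were formed after their values were seen, and the share of all genes with either order was not counted.

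**Figure D5:**
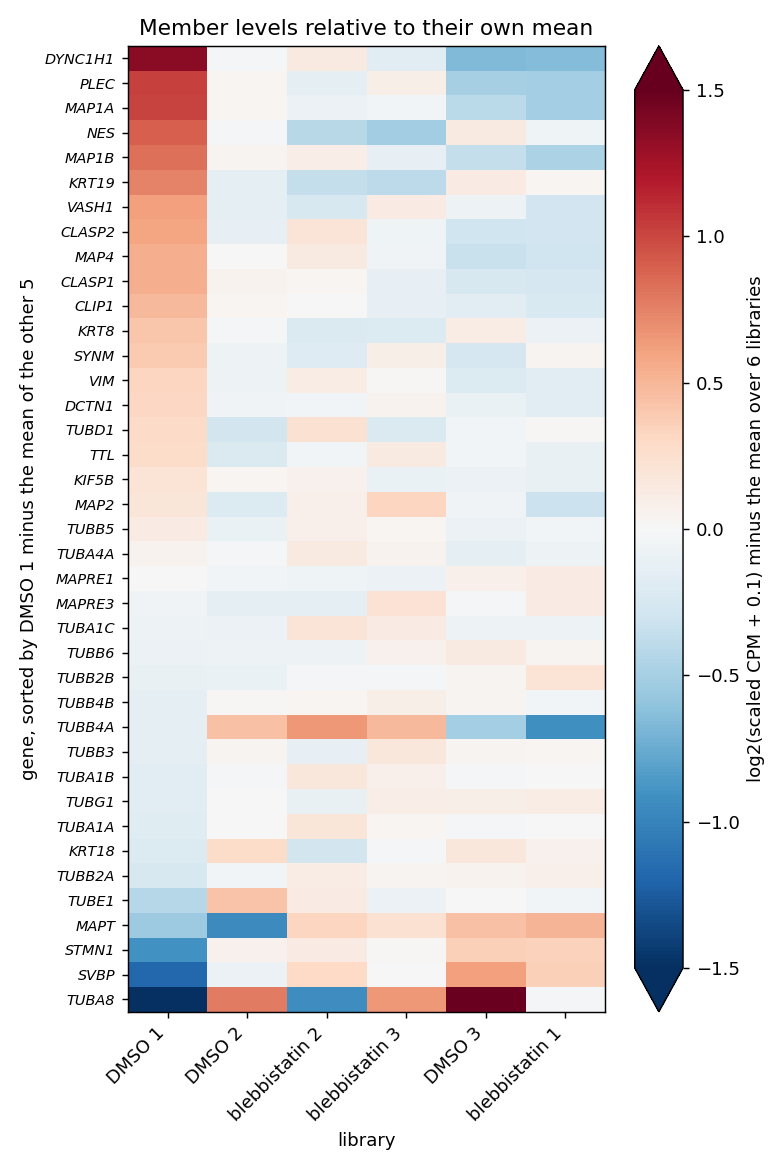
Level of each of the 39 genes in each library relative to the gene's own mean over 6 libraries (colour, log2 units), with genes sorted by DMSO replicate 1 relative to the other 5 and libraries ordered by that pattern. The column of DMSO replicate 1 runs from high for DYNC1H1 (2159 CPM) to low for SVBP (3.72 CPM) and TUBA8, and the columns of DMSO replicate 3 and blebbistatin replicate 1 tend the other way.

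Beyond the 39 genes, 150 tested genes of the same machinery were examined in 9 lists, and limma called 0 of them over all genes. At an unadjusted p under 0.05 there was 1, CAMSAP1, beside 1.52% of all genes. The groups did not overlap for 5 of the 150, 1 higher and 4 lower, beside 3.23% and 2.96% of all genes. Of the 150 genes, 85 had negative values. Their median was -0.042 on the log2 scale, and 0.011 without DMSO replicate 1. Apart from VASH2, MARK1, TTC5 and DES, the genes named from these lists are those with the lowest p in each.

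CAMSAP1, which protects microtubule minus ends, was at 98.1, 78.3 and 69.6 CPM with DMSO and at 69.2, 57.7 and 57.9 CPM with blebbistatin. Every treated library was below every control. The log2 difference was -0.44 ± 0.18, with an adjusted p of 0.991 by limma, and -0.26 without DMSO replicate 1. MAP9, also a microtubule-associated protein gene, had a log2 fold change of -0.28 ± 0.14. The groups of MAP9 did not overlap, nor did those of MARK1, a kinase of microtubule-associated proteins named here after its values were seen (-0.18 ± 0.13). Their list had 25 of 34 negative values and a median of -0.12, and 17 of 34 and -0.00057 without DMSO replicate 1.

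For the 22 tubulin folding genes the median was 0.011, and -0.047 without DMSO replicate 1. ARL2, a GTPase that works with the tubulin cofactors, had a log2 fold change of 0.48 ± 0.28 and the cofactor gene TBCC one of 0.31 ± 0.19. Without DMSO replicate 1 these were 0.20 and 0.19, and without blebbistatin replicate 3 TBCC was at 0.21. TTC5, which recognises nascent tubulin chains on ribosomes in the control of tubulin messenger RNAs, was at 11.8, 15.7 and 20.6 CPM with DMSO and at 19.8, 17.3 and 17.6 CPM with blebbistatin. Among 20 modifying and severing enzymes the median was 0.039 (0.062 without DMSO replicate 1), with -0.37 ± 0.22 for the carboxypeptidase AGBL5 (-0.20 without blebbistatin replicate 1).

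Over 12 genes of the nucleation complex the median was 0.017, with -0.40 ± 0.30 for AKAP9 and -0.19 ± 0.19 for PCNT, both scaffold genes. That median was 0.073 without DMSO replicate 1, where AKAP9 and PCNT were at -0.055 and 0.025. The 1 tested gene of the other tubulins, TUBG2, had a log2 fold change of -0.15 ± 0.29, and 0.090 without DMSO replicate 1. Over 19 kinesin genes the median was -0.094, with -0.23 ± 0.15 for KIF3B and -0.48 ± 0.34 for KIF5C. The kinesin median was -0.0033 without DMSO replicate 1, with -0.081 for KIF3B and -0.19 for KIF5C. Over 26 dynein and dynactin genes the median was 0.023, and -0.039 without DMSO replicate 1. DYNC1I1, a neuronal dynein intermediate chain, was listed at 0 in DMSO replicates 1 and 2 and at 0.356 to 0.454 CPM in the other 4 libraries. The light intermediate chain gene DYNC1LI1 had a log2 fold change of -0.17 ± 0.19, and 0.026 without DMSO replicate 1.

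DES, the gene of desmin, the muscle intermediate filament, was at 1935, 1673 and 1413 CPM with DMSO and at 1464, 1805 and 1945 CPM with blebbistatin. The groups overlapped (log2 fold change 0.017 ± 0.19; adjusted p = 0.993 by limma). Over the 12 tested genes of its list the median was 0.030, with -0.20 ± 0.17 for KRT80, whose groups did not overlap, and -0.55 ± 0.49 for the low keratin gene KRT7. Without DMSO replicate 1 KRT80 was at -0.12 and the list's median at 0.070, and KRT7 ran from -0.91 (without blebbistatin replicate 1) to -0.11 (without blebbistatin replicate 3). Of the 4 tested linker genes, DSP (desmoplakin) was at -0.35 ± 0.33 and PPL (periplakin) at -0.30 ± 0.35 on the log2 scale. Without DMSO replicate 1 these were 0.046 and 0.10.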

How the data were processed

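The deposited table holds CPM made by the authors: each of the 6 columns sums to 1000000, although its name speaks of counts. Per the submitters' processing notes, the tools were BWA, Trim Galore, MACS2 2.1.0, HISAT2 2.1.0, edgeR 3.20.9 and StringTie 1.3.4, and the build was rn6, with no step or data type named. The annotation and strand setting are not given in the sources used here. In each library 99.1 to 99.2% of values above 0 are whole multiples, within 0.02, of 1 step, taken as 1 read (59.6 to 63.3 M reads per library); whole reads were not recovered for all genes, so no count test was run. The step was used for the filter (10 reads at the median depth of 61.7 M, or 0.162 CPM, in at least 3 libraries).

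CPM divided by TMM factors (unweighted, trims 0.3 and 0.05; 0.929 to 1.03) entered log2(value + 0.1) and limma 3.58.1 in R 4.3.3 (trend and robust), two-sided, with no block and with Benjamini-Hochberg adjustment over 15204 genes at 0.05. Because of the added 0.1 CPM, differences of genes near that level come out too small. Single-library values are printed as deposited, while group means and SDs, the order of libraries and overlap use scaled CPM. The script was tested on simulated data. No transcript length was used, so the planned shares per length became shares of reads, and the rule that takes the gene with the most CPM per length in each role took the one with the most CPM. The rule also takes the lowest p in each role, each gene with groups that do not overlap, up to 2 genes of lowest p per wider list, and DES. Other genes given were chosen after their values were seen. The 40 genes and all lists were chosen with earlier results of these data known. Alternatives covered scaling, filter, pseudocount, robust setting, replicate block and leaving out each library. Some genes of the wider and marker lists are not reported here.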

Additional observations from a re-analysis of the deposited data

How the results depend on the processing

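Under all alternatives run, 0 of the 39 genes passed an adjusted p under 0.05 (lowest 0.596, without DMSO replicate 3). The 3 genes called over the whole table became 0 when genes at 0 in any library were left out, a filter that removes 2 of them, and ran from 3 to 6 with single libraries left out. Leaving out single libraries gave 0 to 5 of the 39 at an unadjusted p under 0.05, beside 0.888 to 6.08% of all genes (6.08% in the fit without DMSO replicate 3, which gave the 5), and 6 to 12 with groups that did not overlap. Of all genes, 12.1 to 22.6% then had groups that did not overlap. The highest of these came without DMSO replicate 3, with 30.8% of the 39, among them MAPT, MAP1A, CLASP1, CLIP1 and SVBP. For 35 named genes, 522 values were recomputed, of which 24 had the other sign. With library-size scaling MAPRE1, TTL and VIM turned to 0.0225, 0.0283 and 0.0176. The median over all genes also rose with that scaling, from 0.0038 to 0.042, and genes with positive values went from 7697 to 8782. With single libraries left out, log2 fold changes ran from -0.895 to 0.117 for DYNC1H1, -0.715 to 0.0443 for PLEC, -0.341 to 0.101 for MAP4, -0.0835 to 0.0241 for MAPRE1, -0.122 to 0.124 for TTL, -0.130 to 0.134 for VIM and -0.00462 to 0.133 for TUBG1. They ran from -0.123 to 0.173 for DES, -0.653 to 0.0463 for DSP, -0.595 to 0.104 for PPL, -0.286 to 0.0261 for DYNC1LI1, -0.315 to 0.0252 for PCNT and -0.319 to 0.0895 for TUBG2. The TUBB5 share difference ran from -1.35 to 1.69 percentage points, with -0.132 over all libraries. With the replicate block 2 genes were called over the whole table and 0 of the 39, and NES had a limma p of 0.0113. Same-numbered libraries' deviations correlated at -0.289, 0.0542 and -0.092, which gives no sign of pairing. Shares per length were not run. The cause of these changes was not tested.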
